A study of Mus musculus with 4 samples.

Results

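The genes described here are the cytochrome P450 genes of mouse liver, read as every gene on the array whose name starts with Cyp and a digit, apart from Cyp51, Cyp4a10, Cyp4a14, Cyp7a1, Cyp7b1, Cyp8b1 and Cyp27a1, which serve cholesterol, bile acid or fatty acid pathways and were left out. The array held 90 such genes on 111 probes, of 31829 gene names and 39429 probes in all. The mice were C57BL/6J males (strain C57/Bl6 in the labels), 8 to 12 weeks old, and RNA came from single livers. Each condition had 4 mice, which were either without food for 24 h (fasted) or without food for 24 h and then given food for 2 h (refed), so that both groups had been through the same fast and neither was fed throughout. In the study a cohort was split after the fast, so the refed livers were taken 2 h later. Feeding and time of day therefore cannot be told apart. The livers were hybridised in random pairs on 4 two-colour arrays, so that every array carried 1 liver of each condition and gave 1 ratio per probe. The fasted liver carried the dye Cy5 on arrays 1 and 2 and the dye Cy3 on arrays 3 and 4. All ratios below are log2 of fasted over refed, and all levels are log2 of normalized intensity. A level can be compared between livers for 1 probe but not between probes. Whole liver was measured, so a change in cell number and a change in RNA per cell cannot be told apart.

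Cytochrome P450 enzymes are heme proteins that insert an oxygen atom into fat-soluble molecules. In hepatocytes most of them sit in the endoplasmic reticulum and receive electrons from the P450 reductase Por, while a few work in mitochondria with ferredoxin and its reductase. The CYP1, CYP2 and CYP3 families clear drugs and other foreign compounds and also hydroxylate steroids, fatty acids and bile acids, CYP4 enzymes hydroxylate the end of fatty acid chains, and CYP26 enzymes break down retinoic acid. Several respond to the nuclear receptors CAR (Nr1i3) and PXR (Nr1i2) or to the Ah receptor, and many differ between the sexes or between the zones of the liver lobule.

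The probes that carried the 5 called genes, a near neighbour of one of them and 1 probe with an unusual sequence are shown by the first 30 of their 60 bases, from the scanner files. Their positions are those of the whole probe in the mm9 build. Whether a probe lies in coding or untranslated sequence was not analysed here. The capitals mark a run of GT repeats.
Cyp26a1, chr19:37775566-37775625: atcttcactaacaaggaggaatttaatccc
Cyp2c70, chr19:40227969-40228028: cttcttctgtgagcaaaaaggtcctcctgt
Cyp4f14, chr17:33042214-33042273: gactattctctgaacaacataggaagccaa
Cyp2b10, chr7:26711522-26711581: cacttatcagctctccatgatctgggatct
Cyp3a57, chr5:146151322-146151381: ccagaaaaacccatcatcctaaagtttgtg
Cyp3a25, chr5:146788879-146788938: cactaattccagttagttacatccattctg
Cyp2u1, chr3:130996343-130996402: actttatcattgGTGTGTGTGTGTGTGTGT

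A probe was kept when the scanner software called it well above background in all 4 fasted livers, in all 4 refed livers, or in both. This left 65 of the 90 P450 genes on 82 probes, and a gene with several kept probes is represented by its brightest one. Of 5 hepatocyte markers 5 were measured, with a median ratio of 0.37 and Tat called higher in fasted liver (0.84, adjusted p = 0.045 in limma). Alb and Ttr averaged 0.10 and -0.14. The 4 measured periportal markers of 5 were all above 0, with a median of 0.40 and none called. Of 5 pericentral markers 4 were measured, with 2 means above and 2 below 0, a median of 0.11 and none called. Of 11 markers of pancreatic acinar cells 3 were measured (Clps, Ctrb1 and Cel), and the summed level of these 3 was 8.68 to 9.03 in 3 refed livers, 8.77 to 9.96 in the fasted livers and 14.07 in the refed liver of array 3. The summed level of the 3 blood markers (Hbb-b1, Hba-a1 and Alas2) was 16.21 and 16.89 in the fasted livers of arrays 1 and 3 and 13.89 to 15.09 in the other livers. Called genes whose call depended on array 3 are therefore also given without it. Across all kept probes, the ratios of arrays 1 and 2 correlated at r = 0.66 and those of arrays 3 and 4 at r = 0.75, while r was 0.22 to 0.40 between arrays of opposite dye orientation. Arrays 1 and 2 hold other livers than arrays 3 and 4, so for a single gene an effect of the dye and a difference between these livers cannot be told apart.

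Most hepatic P450 genes showed no called difference between fasted and refed liver. A gene was called when its Benjamini-Hochberg adjusted p in limma was under 0.10 and it changed by at least 1.5-fold, and 5 of the 65 genes were called. Cyp26a1, Cyp2c70 and Cyp4f14 were lower in fasted liver, and Cyp2b10 and Cyp3a57 were higher. These 5 genes were 7.69% of the 65, against 3.94% of all 16085 genes represented in the same way (1.82% called higher and 2.13% called lower). Over all 19721 kept probes 3.77% were called, 1.7% higher and 2.07% lower. The median ratio of the 65 genes was 0.07, against 0.00 over all genes, and their range was -1.76 to 0.97. A ratio of one sign on all 4 arrays was seen in 22 of the 65 genes (16 higher and 6 lower), or 33.8%, against 29.9% of all genes. Levels of the 4 fasted and 4 refed livers did not overlap in 7 of the 65 genes, or 10.8%, against 13.8% of all genes. These 7 were Cyp26a1, Cyp2c67 and Cyp2c68, which were lower in the fasted livers, and Cyp3a57, Cyp4f15, Cyp4f17 and Cyp4f18, which were higher. Without the fold limit, limma gave 8 genes with an adjusted p under 0.10 (12.3%, against 11.2% of all genes), the additional ones being Cyp3a25, Cyp4f15 and Cyp2j6. Of the 60 genes that were not called, 38 had a 95% confidence interval wholly within a 1.5-fold change either way (63.3%, against 85.9% of all genes not called), and for the other 22 a change of that size was not resolved by 4 arrays. The ratios of P450 genes varied more between arrays than those of genes in general, with a median SD of 0.307 against 0.186. The P450 probes were also brighter (a median log2 intensity of 12.3 against 8.44), and the part of brightness in the SD and in the shares of narrow intervals was not tested.

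**Figure D1:**
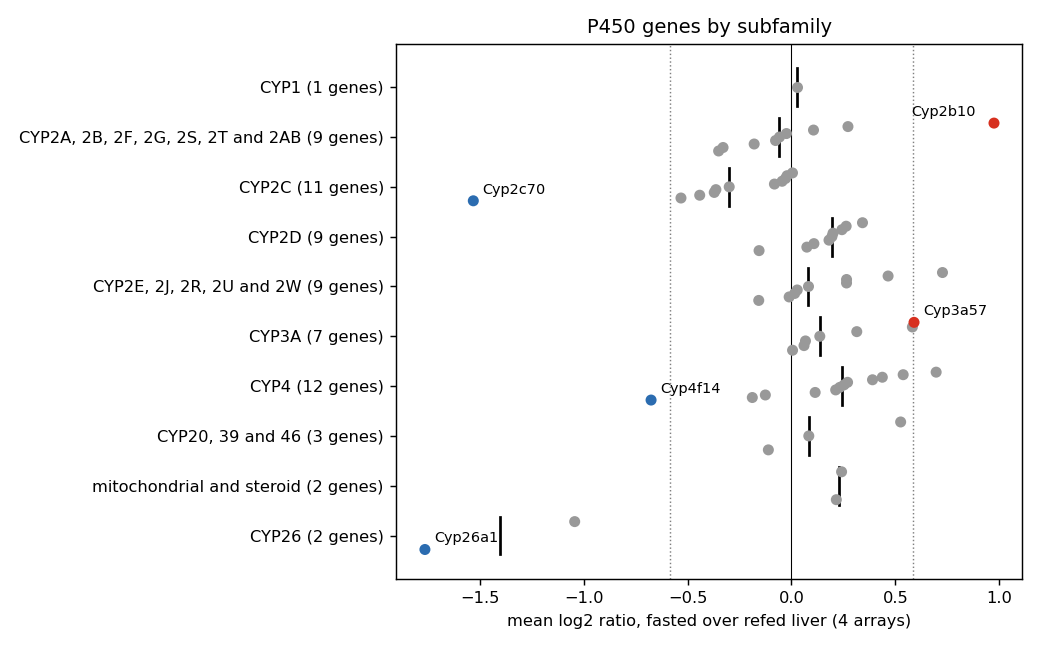
Mean log2 ratio of fasted over refed liver (x axis, 4 arrays) of each of the 65 measured P450 genes, by subfamily, with the median of each subfamily as a black bar and the 1.5-fold limit as dotted lines. Red and blue points are the genes called higher and lower in fasted liver, and Cyp26a1 at -1.76 and Cyp2c70 at -1.53 lie furthest to the left.

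The 2 measured genes that break down retinoic acid had the lowest median of any subfamily. Cyp26a1, the main retinoic acid hydroxylase of liver, had a level of 7.10, 6.94, 7.17 and 6.83 in the fasted livers of arrays 1 to 4. In the refed livers its level was 7.27, 8.05, 10.56 and 9.22. The fasted livers lay close together, while the refed livers were widely spread and all lay above the fasted ones. The fasted levels were low, since a probe above background in no channel, that of Cyp11a1, read 5.85 to 6.10. The offset of 50 in the background correction narrows differences between such low levels, and its part in this closeness was not tested. The ratios were -0.17, -1.11, -3.39 and -2.39, with a mean of -1.76 ± 1.42 (SD, n = 4), a 95% confidence interval of -2.95 to -0.58 and an adjusted p of 0.097 in limma. This is a level 3.40-fold lower in fasted liver, the largest mean difference of any P450 gene over all 4 arrays. Without array 3 or array 4, or with normexp fitted to all spots, that of Cyp2c70 was larger. Without array 3 the ratio was -1.22 and the adjusted p in limma was 0.23, and the call was also lost without array 2 or without array 4. The size of the ratio depended on the background correction and was -2.47 with the scanner software's processed signals, with the call kept, and -0.44 with normexp fitted to all spots, without it.

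Cyp26b1, the second enzyme of this family, had a level of 8.52, 8.59, 9.06 and 7.81 in fasted livers and 7.92, 8.80, 11.01 and 10.43 in refed livers. The same refed livers, those of arrays 3 and 4, were the highest for both genes, while on arrays 1 and 2 the fasted and refed levels of Cyp26b1 overlapped. Its ratios of 0.60, -0.21, -1.95 and -2.61 gave a mean of -1.04 ± 1.49 (SD, n = 4) and an adjusted p of 0.32 in limma, so it was not called. With a dye term in the model the adjusted p of Cyp26b1 was 0.011 in limma and that of Cyp26a1 was 0.0049. The mean of Cyp26b1 was -0.52 without array 4 and -0.10 with normexp on all spots. The refed liver of array 3 was the one with pancreatic acinar markers, and the part of these in the CYP26 levels was not tested. On array 4, where the summed acinar level of the refed liver was 8.68, the ratios were -2.39 for Cyp26a1 and -2.61 for Cyp26b1. Lrat, the retinol esterifying enzyme of stellate cells and one of the marker genes examined, had ratios of -0.07, -0.12, -0.75 and -0.49 and was not called (adjusted p = 0.17 in limma). The other markers of endothelial and stellate cells did not share these ratios. Stab2 averaged 0.35 (adjusted p = 0.048 in limma, below the fold limit) and Pecam1 0.11. Col1a1 averaged -0.02, with 0.38 and 0.23 on arrays 3 and 4. The third CYP26 gene, Cyp26c1, was above background in 1 of 8 channels.

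In the 250 bases before the transcription start of Cyp26a1 (RefSeq, GRCm38.p6, chr19:37697558-37697807, plus strand), the capitals mark a direct repeat of AGTTCA with 5 bases between its copies, read on the opposite strand. This is the arrangement that retinoic acid receptors are known to bind, and it begins 32 bases before the start. This motif was added to the search after the promoter had been seen, and on both strands it was found in 7 of 27025 genes (0.0259%), of which Cyp26a1 was the only P450 gene. Its presence in Cyp26a1 was thus known in advance. The share is that of this exact spelling, and looser forms of the repeat were not searched.
Cyp26a1: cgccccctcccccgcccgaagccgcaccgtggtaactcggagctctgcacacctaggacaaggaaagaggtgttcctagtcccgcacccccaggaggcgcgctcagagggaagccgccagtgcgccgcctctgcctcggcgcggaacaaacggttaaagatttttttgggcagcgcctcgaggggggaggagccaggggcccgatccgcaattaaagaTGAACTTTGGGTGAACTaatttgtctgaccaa

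Cyp2c70, the bile acid hydroxylase that makes muricholic acids in mice, was the CYP2C gene with the largest difference. Its level was 11.20, 11.08, 13.23 and 12.89 in fasted livers and 12.42, 14.19, 14.36 and 13.56 in refed livers. Every refed liver was above the fasted liver of its own array, although the groups overlapped, with both livers of arrays 3 and 4 high. The ratios of -1.22, -3.11, -1.14 and -0.67 gave a mean of -1.53 ± 1.08 (SD, n = 4), a 2.89-fold lower level in fasted liver, with an adjusted p of 0.071 in limma. Without array 2, which held the largest ratio, the mean was -1.01 and the call was kept, whereas without array 1 or array 3 the mean was -1.64 or -1.66 and the adjusted p in limma rose to 0.12 or 0.17.

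The other CYP2C enzymes, which include drug-clearing enzymes and arachidonic acid epoxygenases, mostly had smaller ratios of the same sign. Of 13 CYP2C genes 11 were measured, 10 had a mean ratio below 0, and the median was -0.30. Without array 2 the median was -0.13 with 4 genes above 0, and with the mean over all probes of a gene it was -0.12. With only genes above background in both groups, which leaves out Cyp2c55, the median of 10 genes was -0.22. Cyp2c70 was the only one called. The subfamily was split by dye orientation, since its median ratio was -0.42 and -0.61 on arrays 1 and 2 but 0.10 and 0.06 on arrays 3 and 4. Cyp2c29, one of the most responsive CAR and PXR target genes, had ratios of -0.75, -0.76, -0.03 and 0.06. Cyp2c37, an epoxygenase of pericentral hepatocytes, averaged -0.02, and its second probe -0.21. Cyp2c55 averaged -0.30, with a 95% confidence interval of -0.53 to -0.07 and an adjusted p of 0.13 in limma, and it was above background in 3 of the 4 fasted livers. With plain background subtraction its mean was -0.69 and Cyp2c55 was called (adjusted p = 0.033 in limma), and with processed signals it was -0.94 without a call. Cyp2c67 had a level of 13.46 to 13.78 in fasted and 13.83 to 14.66 in refed livers, without overlap, and a mean ratio of -0.53 that was not called (adjusted p = 0.14 in limma). It was called with median centring in place of loess. A second, dimmer Cyp2c67 probe gave -1.40, -1.01, 0.34 and 0.51, so that the 2 probes of this gene differed in sign on arrays 3 and 4. The brighter Cyp2c67 probe also lists accessions of Cyp2c40 and Cyp2c68, and the Cyp2c68 probe those of Cyp2c40 and Cyp2c69, so that the signals of these close relatives may be shared on these probes. The dimmer Cyp2c67 probe lists Cyp2c67 alone, but it differs from the Cyp2c68 probe by only 6 edits. Its signal may therefore be shared as well.

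Cyp4f14, which hydroxylates the inflammatory lipid leukotriene B4, was lower in every fasted liver than in the refed liver of its array. Its level was 11.35, 11.59, 12.06 and 11.99 in fasted livers and 11.94, 12.87, 12.51 and 12.37 in refed livers. The ratios of -0.60, -1.28, -0.44 and -0.38 gave a mean of -0.68 ± 0.42 (SD, n = 4), or 1.60-fold, with an adjusted p of 0.063 in limma. The call was lost when any single array was left out, with means between -0.77 and -0.47. Without array 3 the mean was -0.75 (adjusted p = 0.15 in limma).

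The other measured CYP4F genes had mean ratios above 0, and none was called. Cyp4f15, also a fatty acid omega hydroxylase, had a level of 11.92, 11.75, 11.91 and 11.65 in fasted livers and 11.57, 11.30, 11.14 and 11.06 in refed livers, without overlap. Its mean ratio of 0.54 ± 0.18 (SD, n = 4) had the lowest adjusted p of the P450 genes (0.028 in limma) but stayed below the 1.5-fold limit. Cyp4f17 and Cyp4f18 averaged 0.25 and 0.27, also without overlap between the groups and with adjusted p of 0.13 for each in limma. A second Cyp4f18 probe, shifted by 1 base, averaged 0.23 and its groups overlapped. Of 18 CYP4 genes 12 were measured, 9 of them had a positive mean, and the median was 0.24. It was 0.10 with normexp on all spots and 0.17 under median centring, with 8 positive means in each. The CYP4A genes varied widely between arrays. Cyp4a31, a fatty acid hydroxylase gene, had ratios of 0.49, 1.64, 0.85 and -0.20 with an adjusted p of 0.20 in limma. The 3 Cyp4a31 probes averaged 0.49, 0.53 and 0.70, and one of them also lists Cyp4a10, a gene outside this set. The male-predominant arachidonic acid hydroxylases Cyp4a12a and Cyp4a12b averaged -0.19 and -0.13, with array 3 at 0.82 and 0.69 and the other 3 arrays below 0. Cyp4v3 averaged 0.23 and was not called.

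**Figure D2:**
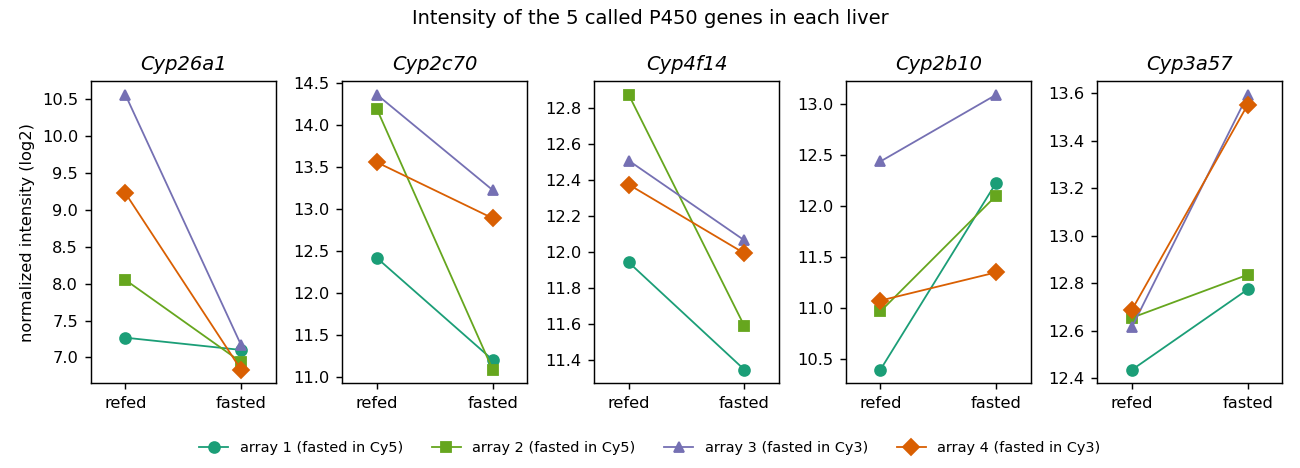
Normalized intensity on a log2 scale (y axis, a separate range for each gene) of the 5 called genes in the 4 refed and 4 fasted livers, with lines joining the 2 livers of an array. Every line of Cyp26a1, Cyp2c70 and Cyp4f14 falls and every line of Cyp2b10 and Cyp3a57 rises, and the fasted livers of Cyp26a1 lie close together at the low levels of 6.83 to 7.17.

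Cyp2b10, the classical target of phenobarbital and of CAR, was higher in each fasted liver than in the refed liver of its array. Its level was 12.23, 12.10, 13.09 and 11.35 in fasted livers and 10.40, 10.97, 12.44 and 11.07 in refed livers, so the groups overlapped. The ratios of 1.83, 1.14, 0.65 and 0.28 gave a mean of 0.97 ± 0.67 (SD, n = 4), or 1.97-fold, with an adjusted p of 0.071 in limma. The ratio was larger on the arrays with the fasted liver in Cy5 (mean 1.48) than on the others (mean 0.47), and without array 2 or array 3 the mean was 0.92 or 1.08 with an adjusted p of 0.20 or 0.16 in limma.

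Other genes that CAR and PXR are known to induce were not called. Of 10 genes in this list 9 were measured, 1 was called (Cyp2b10), 4 had a positive mean and 5 a negative one, and the median was -0.02. It was -0.18 under median centring, 0.11 without array 2 and -0.14 without array 3. A single called gene is 11.1% of this short list, against 3.94% of all genes. Cyp3a11, the main drug-metabolizing CYP3A enzyme and a PXR target, had a level of 15.67 to 15.95 in fasted and 14.95 to 16.26 in refed livers, with a mean ratio of 0.06 and a 95% confidence interval of -0.37 to 0.49. Its second probe averaged 0.09. The brighter probe lists only Cyp3a11, and the dimmer one also its relatives Cyp3a41a, Cyp3a41b and Cyp3a44. Cyp3a13 averaged 0.31 and 0.36 on its 2 probes and was not called.

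Cyp3a57, a member of the steroid and drug hydroxylating CYP3A family, had a level of 12.77, 12.84, 13.59 and 13.55 in fasted livers and 12.44, 12.65, 12.62 and 12.69 in refed livers. The groups did not overlap, and here the refed livers lay close together while those of the fasted group were spread. The ratios of 0.34, 0.18, 0.98 and 0.86 gave a mean of 0.59 ± 0.39 (SD, n = 4) and an adjusted p of 0.077 in limma. At 1.505-fold Cyp3a57 was just inside the fold limit, and the call was lost without array 3 (mean 0.46, adjusted p = 0.24 in limma) or array 4. It was also lost with plain subtraction, processed signals, the deposited ratios, median centring, normexp on all spots or no filter on dim probes. Cyp3a25, at 1.497-fold, was just outside it and was called without array 2 or without array 4. Its level was 14.28, 14.24, 14.91 and 14.70 in fasted livers and 13.64, 13.87, 14.02 and 14.26 in refed livers. Each fasted liver was above the refed liver of its array, and the highest refed and lowest fasted liver met. The ratios of 0.64, 0.36, 0.89 and 0.43 gave a mean of 0.58 ± 0.24 (SD, n = 4) and an adjusted p of 0.033 in limma. These genes had nearly equal mean ratios on either side of the limit, and the SD of Cyp3a25 was the smaller. All 7 measured CYP3A genes, of 8, had a mean ratio above 0, with a median of 0.14, and Cyp3a57 was the only one called. Under median centring 3 of the 7 were above 0 and the median was -0.02. Without array 3, 4 of the 7 were above 0 and the median was 0.07.

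The promoters of Cyp3a57 and Cyp3a25 are close copies. Over the 250 bases before the start (RefSeq, GRCm38.p6), Cyp3a57 and Cyp3a25 differ by 28 edits (88.8% identical), and Cyp3a59 differs from Cyp3a25 by 13 and from Cyp3a57 by 25. Cyp3a11 differs from these 3 by 117 to 119 edits and is closer to Cyp3a16, at 61. Cyp3a59 averaged 0.14, with ratios of -0.14, -0.42, 0.71 and 0.39, and its second probe averaged -0.05. The pair is shown because both genes had ratios above 0 on all 4 arrays, with capitals at bases that differ in the alignment, Cyp3a57 from chr5:145345019-145345268 on the plus strand and Cyp3a25 from chr5:146009619-146009868 on the minus strand.
Cyp3a57: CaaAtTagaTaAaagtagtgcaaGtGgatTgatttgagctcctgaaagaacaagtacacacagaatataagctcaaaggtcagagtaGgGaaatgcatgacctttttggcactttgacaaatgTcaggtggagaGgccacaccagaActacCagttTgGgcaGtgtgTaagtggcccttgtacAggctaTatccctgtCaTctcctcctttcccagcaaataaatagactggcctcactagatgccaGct
Cyp3a25: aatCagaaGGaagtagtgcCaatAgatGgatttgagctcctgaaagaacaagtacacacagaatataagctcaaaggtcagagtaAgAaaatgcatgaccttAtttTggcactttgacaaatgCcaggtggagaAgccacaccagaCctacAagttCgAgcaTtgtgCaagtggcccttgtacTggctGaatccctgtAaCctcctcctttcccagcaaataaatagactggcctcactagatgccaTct

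Other motifs were searched on both strands of the same windows. The full cyclic AMP response element TGACGTCA was in 0 of the 68 P450 genes with a promoter in the table, against 1.77% of 27025 genes. Its shorter form TGACG, which also occurs inside the full element, was in 4 (Cyp11a1, Cyp20a1, Cyp2j5 and Cyp2j9), or 5.88%, against 19.8%. The Ah receptor core GCGTG was in 14, or 20.6%, against 30.9%, and Cyp2b10 held it at 101 and 9 bases before the start. The forkhead motif TGTTTAC was in 8, or 11.8%, against 3.54%, and these were Cyp2ab1, Cyp2c38, Cyp2c39, Cyp2j5, Cyp3a11, Cyp3a16, Cyp3a41b and Cyp3a44. TTATGTAA, a site of the Dbp family, was in 0, against 0.977%. A match is only a run of letters in this window, and several P450 genes are recent copies of each other, so these shares are not independent counts.

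**Figure D3:**
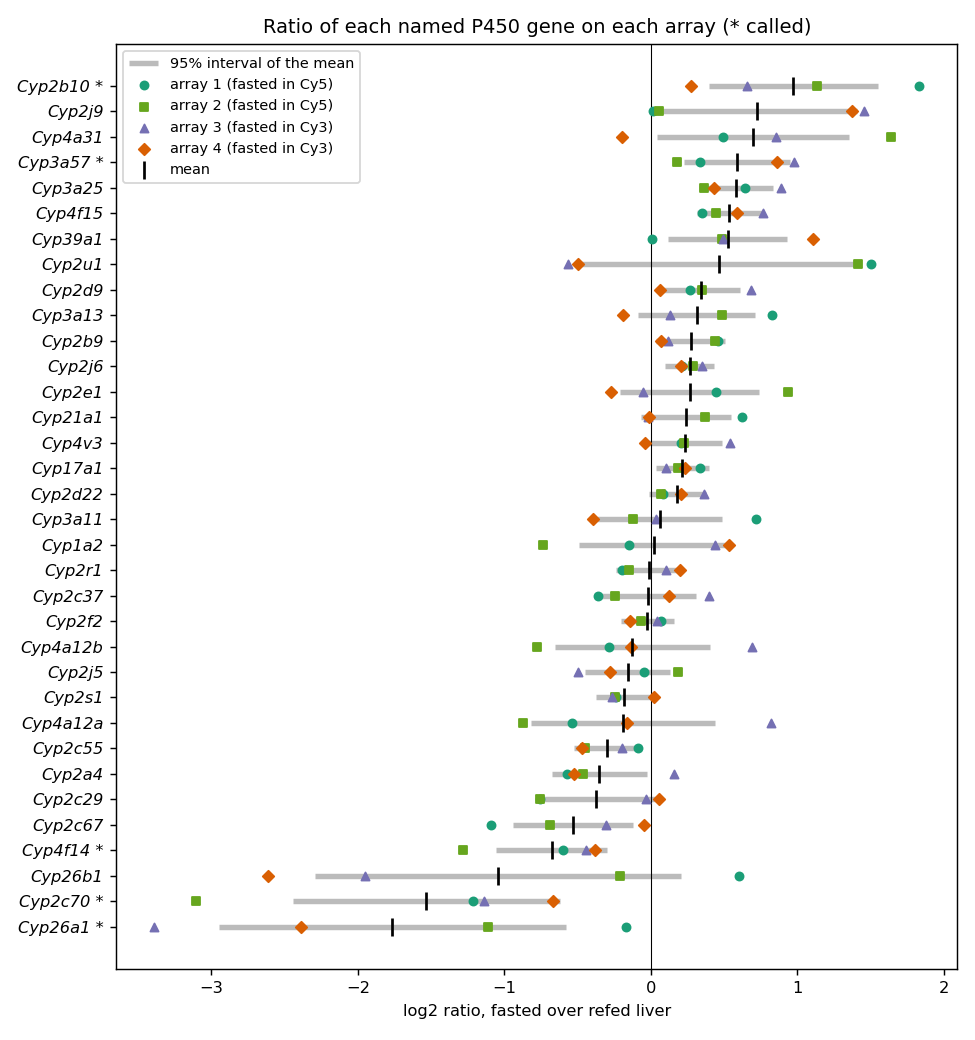
Log2 ratio of fasted over refed liver (x axis) of 34 P450 genes on each of the 4 arrays, with the mean as a black tick and its 95% confidence interval as a grey bar, and with called genes starred. For Cyp26b1, Cyp2j9 and Cyp2u1 arrays 1 and 2 lie far from arrays 3 and 4, whereas the ratios of Cyp3a25 and Cyp4f15 are all on one side of 0.

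The pericentral enzymes that clear ethanol, caffeine and many drugs did not show a called difference. Cyp2e1, which oxidizes ethanol and acetone, had ratios of 0.45, 0.94, -0.05 and -0.27. It was higher in the fasted liver on arrays 1 and 2 and lower on arrays 3 and 4, with a mean ratio of 0.26 ± 0.54 (SD, n = 4) and a 95% confidence interval of -0.21 to 0.74. A second Cyp2e1 probe averaged 0.27 with a different pattern (-0.21, 0.54, 0.33 and 0.43), so that the probes had opposite signs on arrays 1, 3 and 4. Cyp1a2, the caffeine-clearing target of the Ah receptor, averaged 0.02 with ratios of -0.15, -0.73, 0.44 and 0.54. Of the other Ah receptor targets, Cyp1a1 was above background in 3 of the 4 refed and 0 of the 4 fasted livers and was not kept, and Cyp1b1 was above background in 1 channel. None of the 4 pericentral P450 genes was called, with a median of 0.00 (-0.15 under median centring), and neither were the periportal Cyp2f2 (-0.02) and Cyp17a1 (0.22). For Cyp2f2, which oxidizes naphthalene, the 95% confidence interval of -0.20 to 0.16 lay within a 1.5-fold change.

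None of the measured genes in the lists of sex-biased P450 genes was called in these males. Of 10 female-predominant genes 5 were measured and 0 were called, with a median of 0.07 that was -0.10 under median centring. Leaving out 1 array gave medians from -0.01 (without array 3) to 0.155 (without array 2). Cyp2b9 averaged 0.27 with ratios between 0.07 and 0.46, and Cyp2a4, a steroid hydroxylase whose probes also list Cyp2a5, averaged -0.35. All 4 male-predominant genes were measured (Cyp2d9, Cyp4a12a, Cyp4a12b and Cyp2u1) and 0 were called, with a median of 0.11. That median includes the brightest Cyp2u1 probe, described below with its dye effect, and is -0.13 without Cyp2u1 and -0.05 under median centring. With 1 array left out it ranged from -0.08 (without array 3) to 0.155 (without array 4). Cyp2d9, the male-predominant testosterone hydroxylase, was higher in the fasted liver on all 4 arrays (0.27, 0.35, 0.68 and 0.07) with a mean of 0.34 and an adjusted p of 0.14 in limma. In the CYP2D family 9 of 9 genes were measured and none was called, with 8 positive means and a median of 0.19. Under median centring the median was 0.04, with 6 positive means, and Cyp2d9 averaged 0.18. Its member Cyp2d22 averaged 0.18. Cyp17a1, the steroid hydroxylase and lyase that mouse liver expresses, averaged 0.22 with a 95% confidence interval of 0.04 to 0.40 (adjusted p = 0.16 in limma). Cyp21a1, the steroid hydroxylase of the adrenal gland, averaged 0.24 on 1 kept probe, and of 5 adrenal markers only Nr5a1 was kept, at -0.05. The second Cyp21a1 probe was above background in 0 of 8 channels, so the probes of this gene differed on its presence. The steroid synthesis genes Cyp11a1, Cyp11b1, Cyp11b2 and Cyp19a1 and the vitamin D hydroxylases Cyp24a1 and Cyp27b1 were above background in 0 of 8 channels.

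Among P450 genes with roles in lipid signalling and vitamin D, Cyp2j6 had small ratios of one sign, at 0.21, 0.29, 0.35 and 0.21, with an adjusted p of 0.085 in limma, though its second probe averaged 0.07. The renal and hepatic epoxygenase Cyp2j5 averaged -0.16, and Cyp2r1, the vitamin D 25-hydroxylase, averaged -0.01. Cyp39a1, which hydroxylates oxysterols, averaged 0.53 with ratios of 0.01, 0.49, 0.49 and 1.11 and an adjusted p of 0.13 in limma, and it was called when array 1 was left out. Cyp2s1 averaged -0.18 and was above background in 2 of the 4 fasted livers. With processed signals its mean was -0.70 and it was called (adjusted p = 0.097 in limma).

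Many P450 probes had different ratios in the 2 dye orientations. With a dye term in the same limma model, 24 of the 82 kept P450 probes had a dye effect at an adjusted p under 0.10 (29.3%, against 14.8% of all probes), of which 9 were brighter in Cy5 and 15 in Cy3. The term also raised the number of called genes to 4 higher (Cyp2b10, Cyp2j9, Cyp3a57 and Cyp4a31) and 4 lower (Cyp26a1, Cyp26b1, Cyp2c70 and Cyp4f14), against 4.37% of all genes called with it. Cyp2j9, an arachidonic acid metabolizing enzyme, had a level of 8.93, 9.11, 10.06 and 10.63 in fasted livers and 8.91, 9.06, 8.60 and 9.26 in refed livers. Its ratios were 0.02 and 0.06 on arrays 1 and 2 against 1.46 and 1.38 on arrays 3 and 4, with an adjusted p of 0.20 in limma without the term and 0.0019 with it.

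Cyp2u1, a fatty acid hydroxylase gene, is represented by a probe whose accession found no current gene name. This brightest probe had ratios of 1.51, 1.41, -0.57 and -0.49, a dye effect of 0.995 (log2 of Cy5 over Cy3) and a mean of 0.46 that was not called. The level was higher in whichever liver carried Cy5. As printed above, this probe holds an unbroken run of 16 GT units over 32 of its 60 bases. A second Cyp2u1 probe averaged -0.07, but its level was only 6.36 to 6.59 and it was above background in 3 of the 4 fasted livers, so it gives no comparison with the first. The repeat was searched for in all kept probes after the Cyp2u1 sequence had been seen. Of 75 probes with at least 10 units of GT or CA in a row, 54 had a dye effect at an adjusted p under 0.10 in limma (72.0%), all of them brighter in Cy5, against 14.6% of the 19646 probes without such a run.

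**Figure D4:**
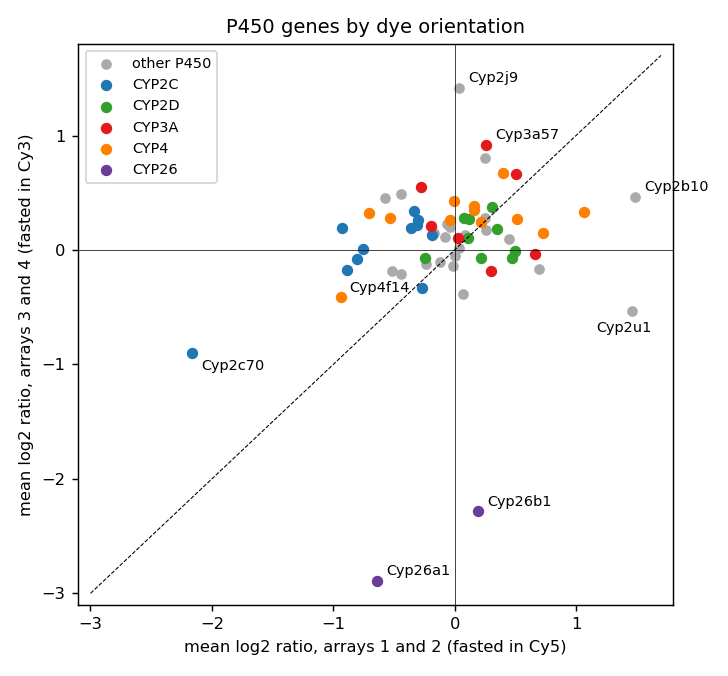
Mean log2 ratio of fasted over refed liver on arrays 1 and 2, with the fasted liver in Cy5 (x axis), against that on arrays 3 and 4, with the fasted liver in Cy3 (y axis), for the 65 measured P450 genes, coloured by subfamily. Genes on the dashed line have equal ratios in both orientations. In 30 of 65 genes the 2 means differ in sign (46.2%, against 46.7% of all genes), among them Cyp2u1 and Cyp26b1.

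The genes that serve P450 enzymes were examined as a separate list of electron partners, heme genes and regulators. Of 47 genes 43 were measured, 2 were called higher and 2 lower in fasted liver, and the median was -0.01. The called genes were 9.3% of those measured, against 3.94% of all genes. Among the electron partners, Por, the reductase that supplies microsomal P450 enzymes with electrons, had ratios of 0.61, 0.78, 1.44 and 0.41 with a mean of 0.81 ± 0.44 (SD, n = 4) and an adjusted p of 0.046 in limma. It was the only one of 9 measured partners that was called. Without array 2 or under median centring Por was not called (adjusted p = 0.14 and 0.11 in limma), and without array 3, which held its largest ratio, the mean was 0.60 and the call was kept. With normexp on all spots Por averaged 0.83 and was not called (adjusted p = 0.48 in limma). Cyb5b, the outer mitochondrial membrane cytochrome b5, averaged -0.55 (adjusted p = 0.033 in limma) and missed the fold limit on its brightest probe, while its second probe averaged -0.77 and was called. Fdx1 and Fdxr, which feed mitochondrial P450 enzymes, averaged 0.16 and 0.35 and were not called.

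In the heme pathway, Alas1, the rate-limiting enzyme of heme synthesis in liver, was the only one of 11 genes called. Its ratios were -0.95, -1.18, -1.83 and -1.66, with a mean of -1.40 ± 0.41 (SD, n = 4) and an adjusted p of 0.011 in limma, and its second probe averaged -0.93 and was called as well. With normexp on all spots the brightest Alas1 probe averaged -1.36 and was not called (adjusted p = 0.14 in limma). The next enzyme, Alad, averaged -0.47 with all 4 arrays below 0 (adjusted p = 0.044 in limma) and stayed within the fold limit. Of the later steps, Uros, Urod, Cpox, Ppox and Fech averaged between -0.15 and 0.08. Hmox2, which breaks heme down, averaged 0.37 (adjusted p = 0.041 in limma) and Hmox1 averaged -0.30, neither of them called.

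Among the 23 measured regulators, Nr1i2, which encodes PXR, was higher in fasted liver, with ratios of 0.30, 0.49, 1.13 and 1.07 and a mean of 0.75 ± 0.41 (SD, n = 4; adjusted p = 0.048 in limma). Without array 3 the mean was 0.62 and Nr1i2 was not called (adjusted p = 0.165 in limma), and the call was also lost without array 2 or array 4. With normexp on all spots Nr1i2 averaged 0.32 and was not called (adjusted p = 0.42 in limma). Dbp, a circadian activator of P450 genes, was lower, with ratios between -1.83 and -0.64, a mean of -1.37 ± 0.51 (SD, n = 4; adjusted p = 0.016 in limma) and a called second probe at -1.53. With normexp on all spots the brightest Dbp probe averaged -0.66 and was not called (adjusted p = 0.56 in limma). The refed livers were taken 2 h later than the fasted ones, so feeding and time of day cannot be told apart for Dbp. Its relatives Tef and Hlf averaged -0.23 and -0.20 and were not called. Nr1i3, which encodes CAR, averaged 0.31 with ratios of -0.15, -0.12, 0.83 and 0.67 (adjusted p = 0.42 in limma), and its second probe averaged 0.31 (adjusted p = 0.071 in limma), below the fold limit. Bcl6, a repressor of sex-dependent genes, had ratios of 1.31, 1.72, -1.14 and -1.82 and was not called. Ahr and Arnt averaged -0.10 and -0.03, and Hnf4a averaged -0.01. A second Arnt probe averaged -0.27 (adjusted p = 0.095 in limma), below the fold limit.

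**Figure D5:**
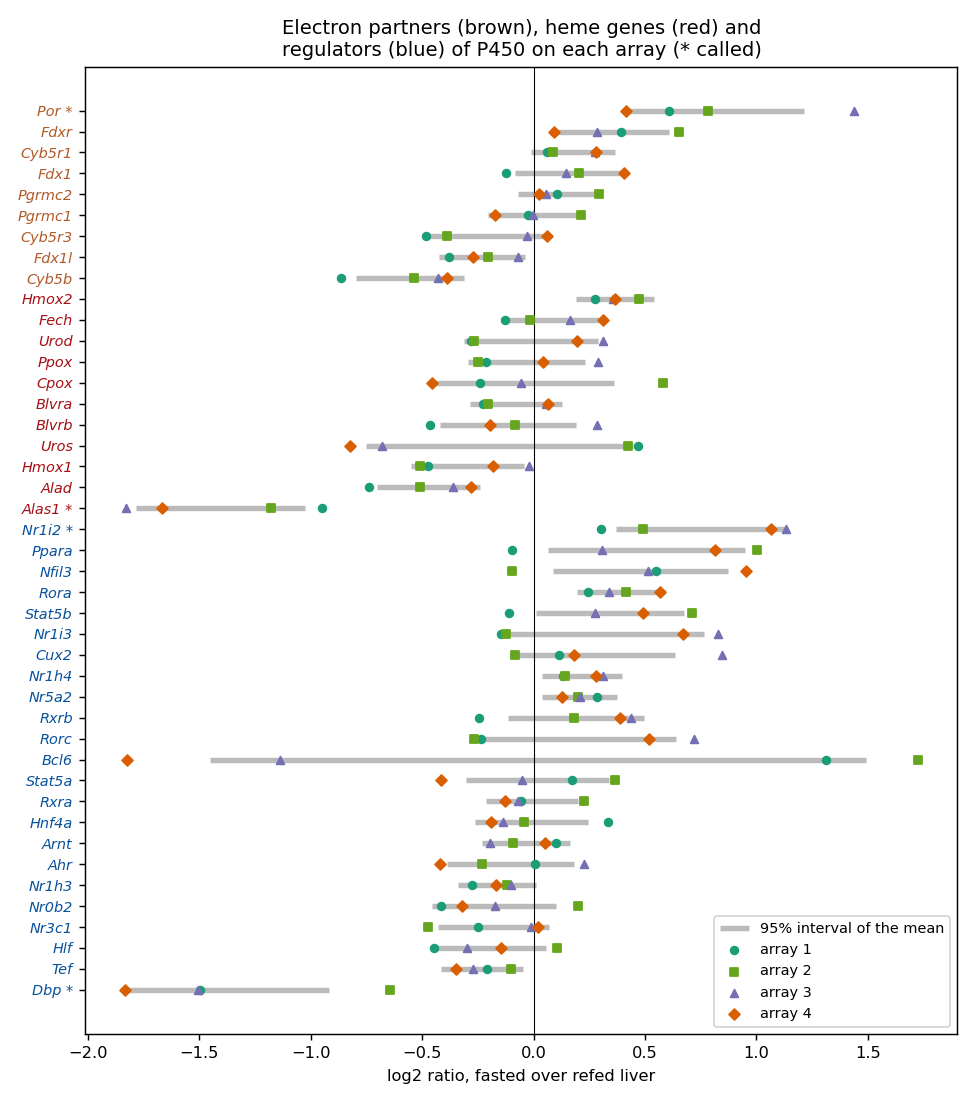
Log2 ratio of fasted over refed liver (x axis) of the 43 measured electron partners, heme genes and regulators of P450 enzymes on each of the 4 arrays, with the 95% confidence interval of the mean as a grey bar and called genes starred. Por and Nr1i2 lie to the right of 0 and Alas1 and Dbp to the left on all 4 arrays.

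For 25 of the 90 genes no probe was kept. Of the 29 probes not kept, which include second probes of Cyp21a1, Cyp2j8 and Cyp2j13, 22 were above background in 0 of 8 channels. These genes include the female-predominant Cyp2b13 and Cyp3a44, which were each above background in 1 refed liver only. No P450 probe was saturated. Among the 82 kept probes, 9 list accessions of more than 1 gene, and the probe of Cyp2c44 carries an accession now named Cyp2c23.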

How the data were processed

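Amplified and labelled RNA (200 ng of total RNA per liver) was hybridised by the authors to Agilent whole mouse genome arrays, all 4 on 1 slide. The deposited scanner files give raw median intensity and local background per spot, and processed intensity, with Feature Extraction 10.10.1.1 and mm9 annotation per the file headers. The authors also deposited log2 ratios (print-tip loess in limma), used only as an alternative. Their rows were matched by row number (r = 0.965 to 0.986 with the ratios used here over kept probes, 0.526 on array 1 and 0.916 to 0.951 on the others over all rows, medians -0.117 to 0.057).

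Intensities of 44397 spots were corrected with normexp (offset 50) and normalized by loess (span 0.3) in limma 3.58.1, run in R 4.3.3. Flagged spots were left out, as were 55 spots with a local background over 3 times the array median, a step chosen after the data were seen. Kept were 19721 of 39429 probes. Ratios were tested two-sided with lmFit and eBayes. SAM, named in the study's methods, was rebuilt with 16 sign flips as an alternative. Levels were scaled between arrays by Aquantile. Median intensity was 40 to 96 against local backgrounds of 20 to 35, and the number of arrays limits the precision.

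Genes named are those called and a list of well-known members. Cyp26b1, Cyp2c67, Cyp2j6, Cyp2j9, Cyp2s1, Cyp4a31 and Cyp4f15, called under an alternative, were added after their values were seen, as were Cyp2c68, Cyp3a59, Cyp4f17 and Cyp4f18. The members and all lists were chosen with earlier results of these data known. RefSeq names were found for 106 of 111 probes and promoters for 68 of 90 genes. A gene of the heme list is not reported here and was left out of its counts. The steps were tested on simulated data.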

Additional observations from a re-analysis of the deposited data

Results flagged for a closer look

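In 34 named genes, the 4 ratios were searched for 1 array that lay far from the others, measured as its gap to the nearest array over the whole range. Chance gives about 1 in 20 such cases, and 2 were found. For Cyp2a4, whose ratios were -0.57, -0.46, 0.16 and -0.52, array 3 stood apart with a gap of 0.8496 of the range, and this array held the refed liver with pancreatic acinar markers and a fasted liver with high blood markers, whose part in it was not tested. For Cyp2s1, at -0.23, -0.24, -0.26 and 0.02, array 4 stood apart with a gap of 0.8974 of the range.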

How the results depend on the processing

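Over 20 alternatives, 617 of 678 values of the 34 named genes kept their direction and their side of the limits, 17 values that were not called changed sign, 30 lost the call, 14 gained one and 0 called values changed sign. P450 genes called higher numbered 2, and 1 with plain subtraction, Agilent's processed signals, the deposited ratios or median centring (Cyp2b10 each time), 0 with normexp on all spots, no filter on dim probes or a 2-fold limit, 4 with a dye term, 5 with no fold limit and 0 to 4 with 1 array left out (0 without array 3). Those called lower numbered 3, and 0 with normexp on all spots, 1 with no filter on dim probes (Cyp4f14), 2 with a 2-fold limit, 4 with plain subtraction (adding Cyp2c55), median centring (Cyp2c67) or a dye term (Cyp26b1), 3 with processed signals (Cyp2s1 in place of Cyp4f14) and 0 to 1 with 1 array left out (0 without array 3). SAM called the same 5 genes. Over all probes, 335 higher and 409 lower became 5 and 16 with normexp on all spots, 550 and 714 with plain subtraction, 604 and 997 with processed signals, 931 and 1205 with no fold limit, 99 and 132 with a 2-fold limit, and 230 and 635 with median centring. With 1 array left out they were 208 to 413 and 256 to 525. Partner, heme and regulator genes called numbered 4, and 0 with normexp on all spots, 8 with no fold limit, 2 with a 2-fold limit and 3 to 5 with 1 array left out. P450 probes with a dye effect numbered 24, and 5 with normexp on all spots and 9 with median centring. Normexp on all spots differs only by keeping the 55 spots of high local background. Limits of 2 and 5 times the median background, chosen after seeing the data, left both P450 counts unchanged.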
